A study of Rattus norvegicus with 15 samples.

Results

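The genes described here encode the subunits of oxidative phosphorylation, and their transcripts were measured in the olfactory epithelium of Brown Norway rats. They were chosen by name: every non-control probe of the Agilent Whole Rat Genome array whose gene name begins with Nduf, Sdha to Sdhd, Uqcr, Cox4 to Cox8 or Atp5 was taken. This gave 71 genes of the 35561 gene names on the array, read by 81 of its 41012 probes. The animals were 4 males (rats 1, 2, 5 and 6) and 4 females (rats 3, 4, 7 and 8), all 6 weeks old and untreated, with no allele or agent that set one group apart. Each epithelium was taken from 1 nostril, called A or B in the labels, and hybridised to an array of its own. Male 1 gave only its nostril A and the other 7 rats gave both, so that there were 15 arrays, on 4 slides. The rats had come from 2 suppliers, but the labels do not give the supplier of each rat, so suppliers were not compared. The study asked how far the transcriptome differed between individuals and between the sexes.

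Oxidative phosphorylation is the process by which mitochondria make most of a cell's ATP. Complex I (NADH dehydrogenase, the Nduf genes) and complex II (succinate dehydrogenase, the Sdh genes) pass electrons to ubiquinone, complex III (the Uqcr genes) passes them to cytochrome c, and complex IV (cytochrome c oxidase, the Cox genes) passes them to oxygen. The proton gradient built up on the way drives ATP synthase, complex V (the Atp5 genes). A few subunits of complexes I, III, IV and V are encoded by the mitochondrial DNA, and all of the genes chosen here are nuclear. Olfactory sensory neurons spend ATP on ion transport and on the constant renewal of cilia and axons. Several Cox subunits exist as a common form and a second form known from heart and skeletal muscle, lung or testis.

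The naming rule also took in a few genes that are not subunits. Ndufaf1 encodes an assembly factor of complex I, Atp5s a coupling factor of ATP synthase and Cox7a2l a protein related to Cox7a2, while Cox4nb is named only for lying next to Cox4i1. The probe called Cox6b on the array carries the array's own description Uroplakin Ia, a bladder membrane protein, so its values are given under that name only. These 5 genes are counted with the complex whose letters they carry. The sequences of 5 probes are shown because the reading of Cox8h, Ndufc2 and Cox6b below turns on which transcript, and which strand, a probe detects. Positions are those of the array's annotation, on build rn3, and sequences run 5′ to 3′. Capitals mark the 21 bases that 2 of the Cox8h probes share in opposite orientation.
Cox8h, probe A_44_P414273, chr1:201207352-201207411, minus strand: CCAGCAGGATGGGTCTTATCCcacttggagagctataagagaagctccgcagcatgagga
Cox8h, probe A_44_P689394, chr1:201207391-201207450, plus strand: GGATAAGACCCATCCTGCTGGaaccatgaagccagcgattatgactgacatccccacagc
Cox8h, probe A_44_P689395, chr1:201207411-201208612, plus strand: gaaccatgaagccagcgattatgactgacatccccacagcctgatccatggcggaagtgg
Ndufc2, probe A_44_P356344, chr1:154719694-154720357, plus strand: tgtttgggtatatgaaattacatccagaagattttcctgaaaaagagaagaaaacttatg
Cox6b, probe A_44_P377337, chr1:85733074-85733133, minus strand: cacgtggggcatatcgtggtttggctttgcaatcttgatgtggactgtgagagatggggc

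Subunits of all 5 complexes were detected in every sample. Of the 81 probes, 79 were well above background on all 15 arrays, against 61.3% of all probes on the array, and these 79 read 70 of the 71 genes. By complex they were 35 of 36 probes for complex I, 4 of 4 for complex II, 7 of 7 for complex III, 18 of 19 for complex IV and 15 of 15 for complex V. No member probe was saturated on any array. The other 2 probes were not well above background on any array. One was the only probe of Cox6c1, which the RefSeq annotation lists under the symbol Cox6c-ps1, and the gene Cox6c itself was detected throughout. The other was the Ndufc2 probe printed above, whose 60 bases the array places over 664 bases of the genome. The second Ndufc2 probe, at chr1:154720415-154720474 on rn3, was detected on all 15 arrays. The tissue label was borne out by its markers, since 13 of the 14 probes for olfactory neuron genes (Omp, Gnal, Adcy3 and others) were detected on all arrays.

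Levels are given as log2 of the processed signal over the median signal of the same array, so that a difference of 1 is a doubling, and n counts rats after the nostrils of a rat were averaged. Levels of different probes were not set against each other, since each probe has its own brightness. A bulk sample cannot tell a lower level per cell from fewer of the cells that make the transcript.

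**Figure D1:**
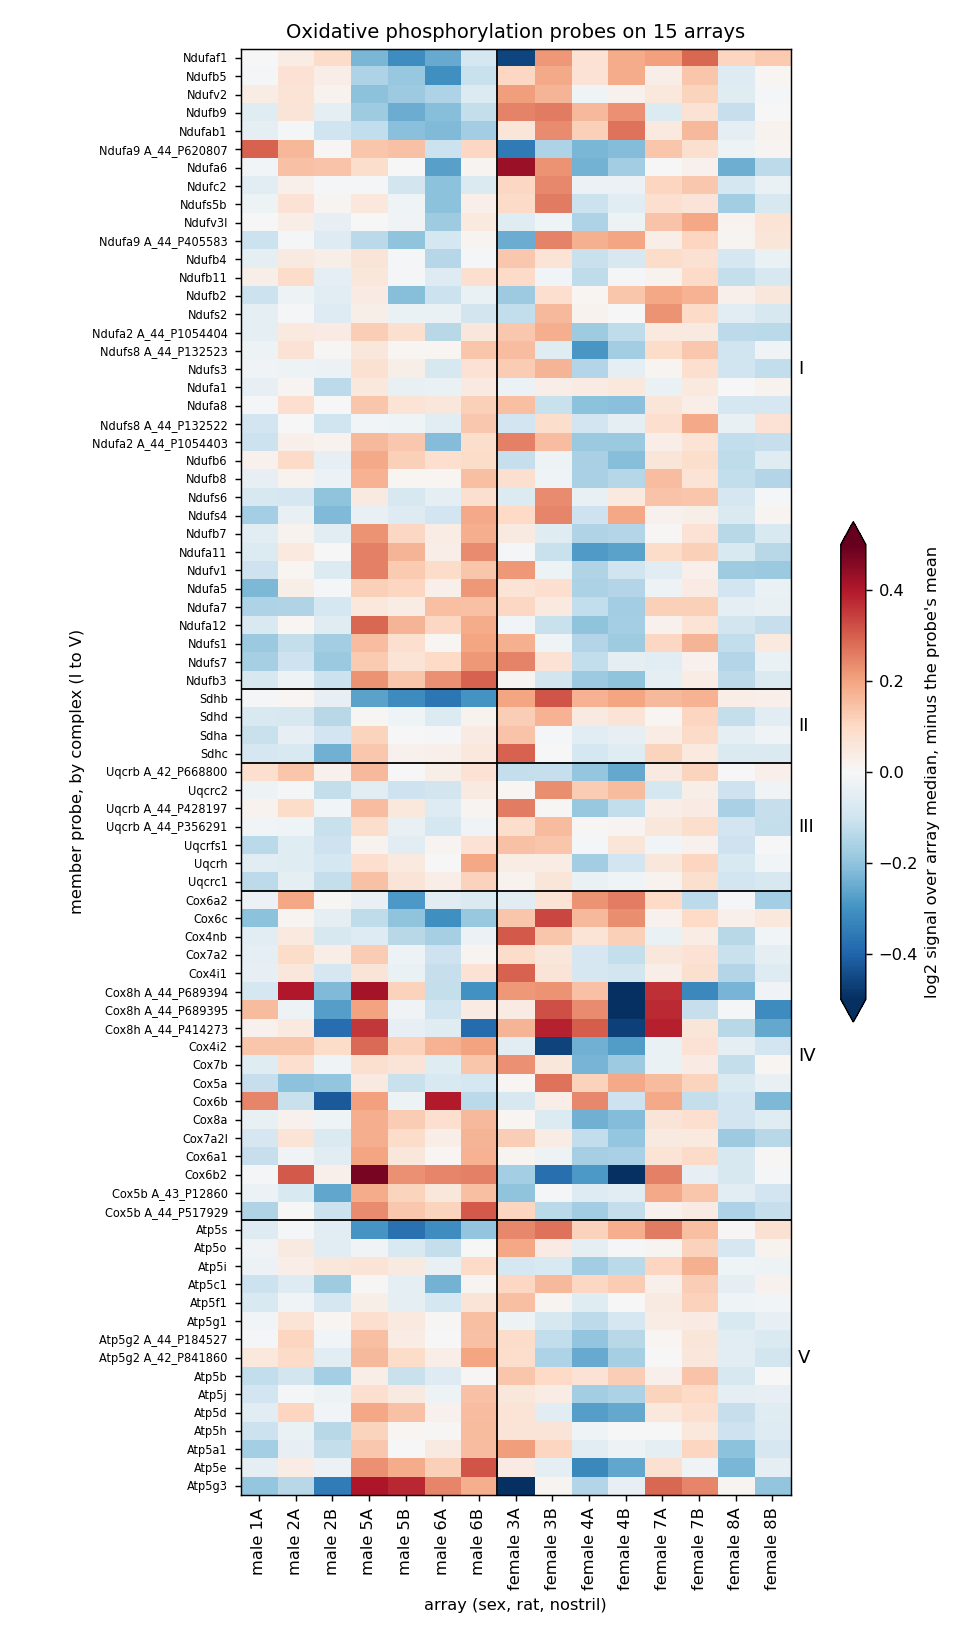
Level of the 79 detected member probes (rows, grouped by complex I to V) on the 15 arrays (columns), as log2 signal over array median after subtraction of each probe's own mean. The colour scale runs from blue (lower) to red (higher) and ends at 0.5 on either side. Sdhb and Atp5s are low on the 4 arrays of males 5 and 6, where Ndufb3 and Atp5e are high.

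No member was called between males and females. None of the 79 probes tested differed between the sexes at the study's false discovery rate of 1% or at 5% (limma, 4 males against 4 females), against 0.0434% and 0.0724% of all 27625 probes tested. The lowest adjusted p of any member was 0.109. Without adjustment, at p under 0.05, 11 probes were higher in females, against 12.2% of all probes, and 3 were higher in males, against 4.9% of all probes. The median difference, female minus male, was 0.001 on the log2 scale, with 40 of 79 probes higher in females. Over all probes tested the median was 0.009. This split moved to 32 of 79 with arrays scaled to the 75th percentile and to 25 of 79 with another background correction (normexp), and the other way to 63 of 79 with the slide as a fixed block (where the female side is 1 array), 51 with it as a random block and 52 without female 4, so no direction is given for the complexes as a whole. The 14 probes at an unadjusted p under 0.05 became 7 without female 4, 8 without male 5 and 18 without female 7. The shares of all probes were then 12.2%, 12.4% and 16.9%. The standard error of a member's sex difference had a median of 0.07.

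The largest differences between the sexes were small. In complex II, Sdhb, the iron-sulfur subunit that passes electrons on from succinate, was 7.66, 7.65, 7.38 and 7.34 in males 1, 2, 5 and 6 and 7.92, 7.85, 7.84 and 7.70 in females 3, 4, 7 and 8. All females lay above all males, and males 5 and 6 lay below males 1 and 2. The difference was 0.32 ± 0.09 (SE, n = 4 and 4), a 1.25-fold higher level in females, with an adjusted p of 0.136 (limma). The other 3 succinate dehydrogenase genes, Sdha, Sdhc and Sdhd, differed by 0.04, 0.05 and 0.10.

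In complex V the largest difference was that of Atp5s, the coupling factor, at 0.33 ± 0.09 (SE). It was between 3.29 and 3.60 in the 4 males and between 3.67 and 3.88 in the 4 females, so the groups did not overlap, with an adjusted p of 0.122 (limma). Atp5c1, the gamma subunit of the ATP synthase stalk, also did not overlap, with a difference of 0.17.

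Complex IV held differences in both directions. Cox6c, a small structural subunit, was between 8.77 and 9.001 in males and between 9.05 and 9.25 in females, a difference of 0.29 ± 0.07 (SE) with an adjusted p of 0.109 (limma). Cox4i2, the form of Cox4 known from lung, ran the other way. It was between 1.80 and 1.89 in males and between 1.43 and 1.71 in females, a difference of −0.30 ± 0.08 (SE) with an adjusted p of 0.132 (limma). Cox6b2, the testis form of Cox6b, had the largest difference of the complex at −0.38 ± 0.14 (SE) and an adjusted p of 0.219 (limma), but the sexes overlapped. Among the common forms, Cox4i1 differed by 0.03, Cox6a1 by −0.05, Cox7a2 by −0.01, Cox7b by −0.05 and Cox8a by −0.13.

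In complex I the largest difference was that of Ndufab1, the mitochondrial acyl carrier protein, at 0.22 ± 0.06 (SE, adjusted p = 0.141, limma), with all females above all males. In complex III it was that of 1 Uqcrb probe, at −0.14 ± 0.08 (SE, adjusted p = 0.393, limma). The 3 members on the X chromosome, Ndufa1, Ndufb11 and Cox7b, differed by 0.04, −0.04 and −0.05. In all, rats of the 2 sexes did not overlap for 6 member probes higher in females (Atp5c1, Atp5s, Cox6c, Ndufa9, Ndufab1 and Sdhb), against 8.82% of all probes, and for 1 higher in males (Cox4i2), against 2.52% of all probes.

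Sex was partly tied to the slide, since slide 3 held only males and slides 2 and 4 only females, and the sexes met only on slide 1 (males 1 and 2 and nostril A of female 3). A fit over the 15 single arrays with the slide as a fixed block, in which the nostrils of a rat count as separate samples, therefore gave as its sex difference nostril A of female 3 minus the mean of the 3 arrays of males 1 and 2. With 1 array of 1 female on one side, it does not test the sexes. In that fit 0 of 79 member probes passed 1%, against 2.32% of all probes, and 6 passed 5%, against 7.69%. That array was 0.28 above those of males 1 and 2 for Atp5s, 0.21 for Sdhb and 0.22 for Cox6c, and the difference for Cox4i2 was −0.18. The 6 past 5% were Sdhc (0.43), Ndufs7 (0.401), Cox4nb (0.33), Uqcrfs1 (0.25), the Ndufa9 probe A_44_P620807 (−0.51) and Ndufaf1 (−0.501). The sign was opposite to that of the difference over 4 and 4 rats for 37 of 79 probes. Among these was Ndufaf1, which was 1.17 in nostril A of female 3 and 1.84 in its nostril B.

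**Figure D2:**
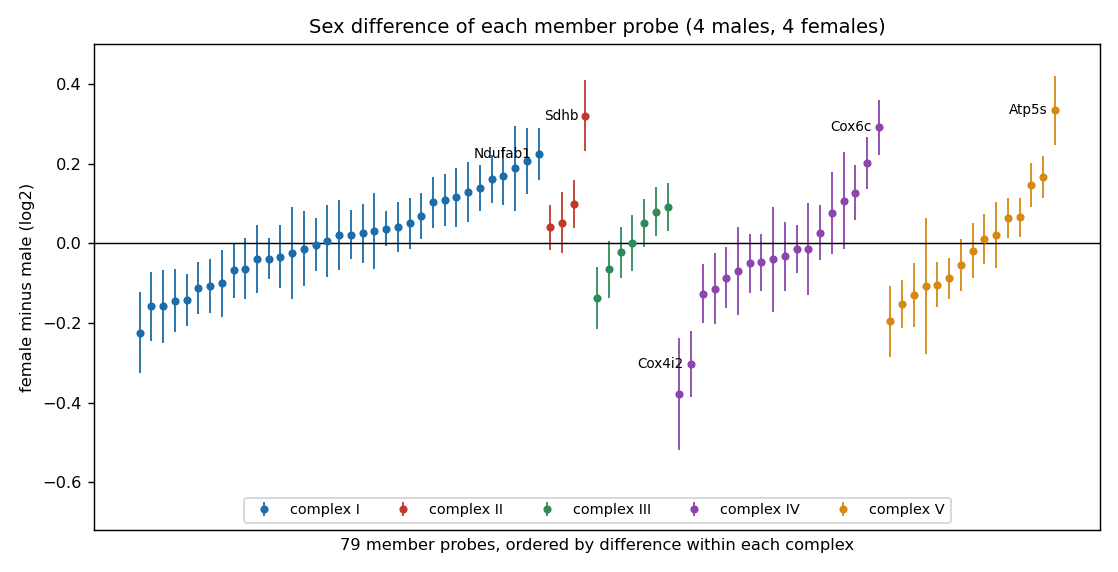
Difference in level between females and males (log2, points) with its standard error (bars) for each of the 79 member probes, in order of size within each complex. Points above 0 are higher in females, gene names mark probes with an unadjusted p under 0.01, and the range runs from −0.38 (Cox6b2) to 0.33 (Atp5s).

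Nor was any member called between the nostrils of a rat. None of the 79 probes differed between nostrils at 1% (limma with the rat as a block, 7 rats), against 0% of all 27574 probes, and 4 did at an unadjusted p under 0.05, against 5.89%. Those 4 were the Cox8h probe A_44_P414273, the probe A_44_P689394 on the strand opposite to it, Cox6b2 and the probe called Cox6b. All were lower in nostril B, all with an adjusted p of 0.781 (limma). On probe A_44_P414273, Cox8h was higher in nostril A in 6 of 7 rats, with a difference, B minus A, of −0.31. The exception was female 3, with 7.71 in nostril A and 7.92 in nostril B, which were hybridised on different slides. The median difference over all member probes was 0.008.

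Rats of 1 sex were compared with the nostrils of a rat as the error. At 1% no member passed limma's F-test over the rats of a sex (15 arrays), against 2.79% of all 27574 probes. The test cannot separate animals from slides. At 5%, 18 of 79 probes passed, or 22.8%, against 16.1% of all probes, and at an unadjusted p under 0.05 there were 45, or 57%, against 37.1%. Of the 7965 brightest probes tested here, those with a mean signal above 16 array medians, 21.5% passed 5% and 47.6% had an unadjusted p under 0.05, and of the 67 members of that brightness 25.4% and 61.2% did. The lowest adjusted p values were 0.0108 for Ndufa7 and 0.0112 for Sdhb. By complex, 11 of the 18 belonged to complex I, 1 to complex II, 0 to complex III, 1 to complex IV and 5 to complex V. Of the 8 probes for the conserved core subunits of complex I, 2 passed 5% between rats and 0 between the sexes, and their mean level spanned 0.19 over the 8 rats. The count of 18 depended on single animals, and the share of all probes moved as well. It was 5 without male 2, without male 5 or without female 7, against 9.39%, 11.3% and 7.11% of all probes. It was 6 without female 4 (11.8% of all probes) and 9 without female 8 (9.3%). The count was 16 without male 1 (14.6%), 21 without female 3 (20.7%) and 23 without male 6 (17.9%). It was 4 with the deposited ratio table (11.7%) and 0 with normexp (0.671%).

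The genes named next were singled out for their low p in the F-test after their values were seen. There were 2 opposite profiles among them. Sdhb was 7.66 on the single array of male 1 and 7.68 and 7.63 on those of male 2, against 7.401 and 7.352 for male 5 and 7.31 and 7.37 for male 6. Both nostrils of males 5 and 6 thus lay below males 1 and 2, and the 8 rats spanned 0.59, or 1.501-fold. The nostrils of a rat differed by an SD of 0.05. Ndufv2 (adjusted p = 0.0245, limma), an iron-sulfur core subunit of complex I, and Ndufb9 (adjusted p = 0.0362, limma), an accessory subunit, also had males 5 and 6 below males 1 and 2, as did Atp5s (adjusted p = 0.0449, limma).

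Ndufb3, another accessory subunit of complex I, went the other way. It was 8.86 in male 1, 8.91 and 8.83 in male 2, 9.16 and 9.08 in male 5 and 9.17 and 9.23 in male 6 (adjusted p = 0.0207, limma). Ndufa7, Ndufa11, Ndufa12, Ndufa5 and the core subunit Ndufs7 of complex I, Cox8a of complex IV, and Atp5d, Atp5e and Atp5j of ATP synthase also had males 5 and 6 above males 1 and 2. Over all 79 member probes, males 5 and 6 were both above males 1 and 2 for 43, or 54.4%, against 31.8% of all probes, and both below for 11, or 13.9%, against 22.3%. Among the probes above 16 array medians the shares were 46.7% above and 18.5% below, and among the 67 members of that brightness 58.2% and 11.9%. Males 1 and 2 were on slide 1 and males 5 and 6 on slide 3, so animal and slide cannot be told apart in this contrast.

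Female 3 was the 1 animal split between slides, with nostril A on slide 1 and nostril B on slide 2, so slide and nostril cannot be told apart in it, and slide 3 is not covered. Sdhb was 7.87 and 7.98 on these arrays, and Ndufb3 was 8.95 and 8.85. Atp5g3 was 0.43 and 1.13, and the Ndufa9 probe A_44_P405583 was 6.38 and 6.88, a wider gap than between the nostrils of any other rat for either probe. With the slide as a block, 0 member probes passed 5%, against 0.116% of all probes, and 25 had an unadjusted p under 0.05, or 31.6%, against 17.1% of all probes.

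Differences between rats on the same slide were seen for Ndufa6, an accessory subunit of complex I. It was 9.39 and 9.45 in female 4, both on slide 2, where nostril B of female 3 read 9.85, and nostril A of female 3 read 10.06 on slide 1. Its adjusted p was 0.0236 without the slide as a block and 0.186 with it (limma), where fewer pairs of rats were compared.

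The range of the 8 rat means had a median of 0.32 over the 79 member probes, against 0.47 over all probes tested, and 70 of the 79 (88.6%) spanned less than 0.5 on the log2 scale, against 54.2% of all probes tested. The SD between nostrils of a rat had a median of 0.075 for members and 0.119 for all probes. Signal strength went with this: the 7976 tested probes with a mean signal above 16 array medians had a median range of 0.35 and a median nostril SD of 0.079, with 78.9% under a range of 0.5, and the 67 members of that brightness had a median range of 0.31, with 95.5% under 0.5. The part of brightness in the narrow range of the members was not tested otherwise.

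**Figure D3:**
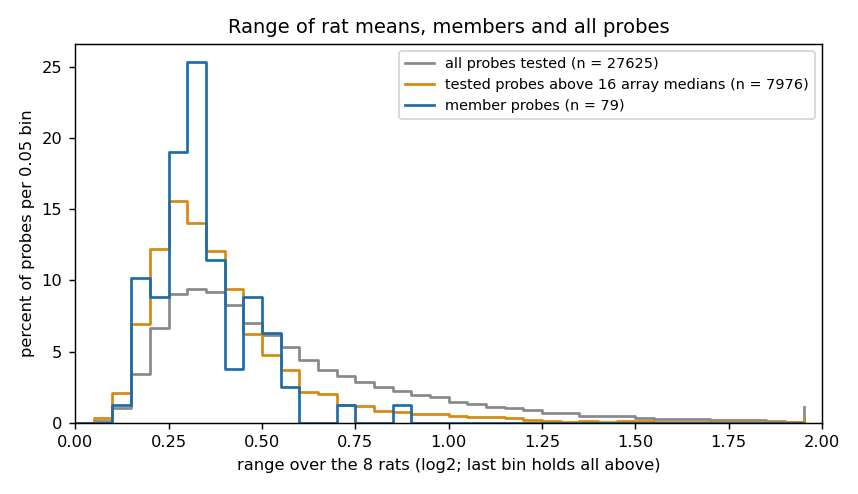
Share of probes (vertical axis, percent per bin of 0.05) by the range of the 8 rat means (horizontal axis, log2), for the 79 member probes, all 27625 probes tested and the 7976 tested probes with a mean signal above 16 array medians. The members peak near 0.3 and end at 0.90, and all probes reach beyond the last bin.

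The narrowest member was Ndufa1, an X-linked complex I subunit, at 8.45 to 8.55 over the 8 rats, a 1.07-fold range. It was followed by Ndufb11 (0.16), also X-linked, Atp5f1 (0.16), the stator subunit b of ATP synthase, Cox7a2 (0.18) and Atp5o (0.18), which joins the stator to the catalytic head. The widest were Cox6b2 (0.90), Atp5g3 (0.73), Atp5s (0.59), Sdhb (0.59) and 1 Ndufa9 probe (0.55). Cox6b2 was highest in male 5, at 2.23, and lowest in female 4, at 1.33. Atp5g3 was between 0.78 and 1.03 in rats 1 to 4 and between 1.03 and 1.51 in rats 5 to 8. Its sister genes Atp5g1 and Atp5g2, which encode the same mature c subunit of the ATP synthase ring with other import sequences, spanned 0.19 for Atp5g1 and 0.26 and 0.34 for the 2 probes of Atp5g2.

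**Figure D4:**
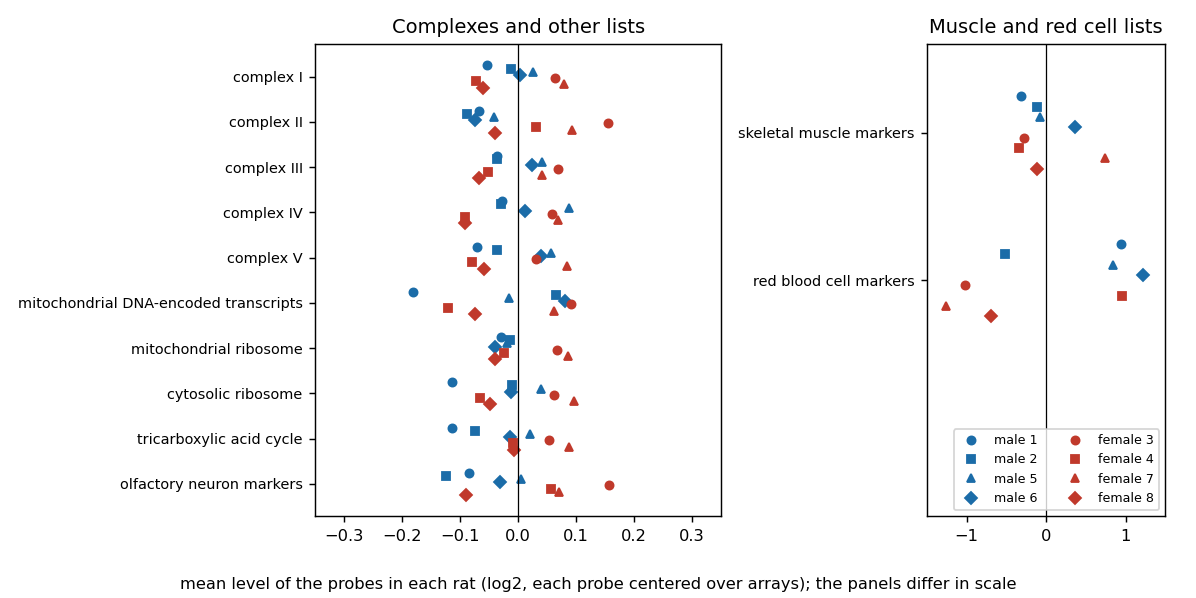
Mean level of the probes of each complex and of other gene lists in each rat (horizontal axis, log2 signal with each probe centered over the arrays; males blue, females red, 1 symbol a rat). The panels differ in scale. The 5 complexes span at most 0.24, whereas the muscle list spans 1.08 and the red cell list 2.48.

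The mean level of the complexes was followed from rat to rat. The mean over all member probes, each centered on its own mean, was −0.05, −0.03, 0.04 and 0.01 in males 1, 2, 5 and 6 and 0.06, −0.07, 0.08 and −0.07 in females 3, 4, 7 and 8. It spanned 0.15 (0.0568 with quantile normalization and 0.57 with normexp), and the nostrils of a rat differed in it by an SD of 0.05. The span was 0.15 for complex I, 0.24 for complex II, 0.14 for complex III, 0.18 for complex IV and 0.17 for complex V. Females 3 and 7 were above 0 and females 4 and 8 below 0 in complexes I, III, IV and V. In complex II, female 4 was at 0.03. The mean over the 7976 tested probes above 16 array medians had the sign of the member mean in each rat. It was −0.07, −0.03, 0.03 and 0.01 in males 1, 2, 5 and 6. In females 3, 4, 7 and 8 it was 0.04, −0.04, 0.05 and −0.03, and it spanned 0.11.

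The lists of ribosomal, metabolic and mitochondrial DNA transcripts, all outside the members, spanned 0.11 to 0.27. Cytosolic ribosomal proteins spanned 0.21 (106 probes), mitochondrial ribosomal proteins 0.13 (69 probes), tricarboxylic acid cycle enzymes 0.20 (19 probes) and glycolytic enzymes 0.11 (22 probes). The 11 probes for transcripts of the mitochondrial DNA itself, a list added after the data were seen, spanned 0.27, and were lowest in male 1 at −0.18. None of these lists held a probe past 1% or 5% between the sexes. Between rats of a sex, 16 of 105 cytosolic and 11 of 69 mitochondrial ribosomal probes passed 5%, with 1 of each past 1%, against the 18 of 79 members. So did 2 of 19 probes for the tricarboxylic acid cycle, 3 of 22 for glycolysis and 2 of 11 for mitochondrial transcripts.

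The helpers and regulators of the chain were measured with them. Of 11 tested probes for assembly factors such as Surf1, Lrpprc and Bcs1l, 0 passed 5% between the sexes (limma) and 7 had an unadjusted p under 0.05, with 6 of these higher in females. Over all probes tested the unadjusted share was 17.1%, with 12.2% higher in females. Of 22 tested probes for electron carriers and coupling proteins, such as Cycs (cytochrome c) and Slc25a4 (the ADP/ATP carrier), 0 passed 5% and 6 had an unadjusted p under 0.05, all higher in females. Of 16 probes for regulators of mitochondrial gene expression, such as Nrf1, Gabpa and Tfam, 1 had an unadjusted p under 0.05 between the sexes. Between rats, 5 of these 16 passed 5%, as did 4 of the 22 carriers and 1 of the 11 assembly factors, against 16.1% of all probes.

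Markers of several cell types had wider spans than the subunits. The mean level of olfactory neuron markers spanned 0.28 over the 8 rats, that of sustentacular and gland markers 2.33, that of skeletal muscle markers 1.08 and that of red blood cell markers 2.48. The 2.33 rested on 3 probes for the odorant-binding proteins Obp1f and Obp3, which spanned 5.57 to 7.18, while the other 6 probes of that list spanned 0.16 to 0.64. Markers of respiratory cilia spanned 0.39 and those of brown fat 0.22. The red cell level was lowest in female 7 (−1.26), female 3 (−1.02) and female 8 (−0.70), where the member mean was 0.08, 0.06 and −0.07, and highest in male 6 (1.22), where it was 0.01. Female 4 (0.96), male 1 (0.94) and male 5 (0.84) had member means of −0.07, −0.05 and 0.04. Male 2 (−0.52) had a member mean of −0.03. No tested probe of these marker lists passed 5% between the sexes (limma). At an unadjusted p under 0.05, 5 of the 9 sustentacular and gland probes were higher in females, against 12.2% of all probes. Among them were Ugt2a1 (0.43, adjusted p = 0.083, limma), Cyp2g1 (0.31) and 1 Cyp1a2 probe (0.34). The red cell markers had a median difference, female minus male, of −1.67, but the sexes overlapped on each tested probe. Of the 13 olfactory neuron probes, 11 were higher in females, against 52.1% of all probes, with a median difference of 0.083. An unadjusted p under 0.05 was found for 3 of them, all higher in females, against 12.2% of all probes, such as 1 Gnal probe (0.27). The part of cell composition in the members' levels, and in the sex differences of Sdhb, Atp5s, Cox6c and Ndufab1, was not tested.

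Muscle-type subunits were followed in each sample because Ckm and Acta1, genes known from muscle, were both detected in 2 of them. Creatine kinase Ckm and skeletal actin Acta1 were well above background on nostril A of female 7, at 2.90 and 1.93, and on nostril A of male 6, at 0.91 and −0.62. Acta1 was at the floor of the scale (−3.32) on the other 13 arrays and Ckm at −3.003 or below. Of the 14 probes of the muscle list, 9 to 11 were detected on each of these 13 arrays and 13 on each of the other 2. Summed over the 14 muscle probes, the signal was 203 array medians in nostril A of female 7, 176 in nostril A of male 6 and 97.5 to 156 on the other arrays.

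Cox8h, the form of Cox8 known from heart and skeletal muscle and now named Cox8b, was detected on every array. Its sense probe A_44_P414273 was between 7.07 (female 4, nostril B) and 7.93 (female 7, nostril A). The value of 7.93 was close to the 7.92 of female 3, nostril B, and the 7.89 of male 5, nostril A, where Ckm was at or near the floor. Nostril A of male 6 read 7.48, within the range of the samples where Acta1 was at the floor. Cox6a2, the muscle form of Cox6a, was between −0.26 (male 5, nostril B) and 0.28 (female 4, nostril B), and read 0.13 and −0.03 on nostril A of female 7 and of male 6. Both forms were thus detected on the 13 arrays where Acta1 was at the floor, which were not free of transcripts from the muscle list.

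Over the 8 rats, no relation of Cox6a2 or of a probe named Cox8h to the muscle list passed the test. Pearson's r with the mean of the 14 muscle probes was −0.25 for Cox6a2 (rho = −0.43) and 0.14 for the Cox8h sense probe (rho = −0.05). It was −0.10 and 0.19 for the opposite-strand probes A_44_P689394 and A_44_P689395 (rho = 0.29 and −0.02), which are not counted as Cox8h messenger RNA. The adjusted p over these 4 relations was 0.815 for each r and 0.977 for each rho (exact permutation test, two-sided, n = 8). Without male 6 and female 7, the 2 rats farthest from the median, r was −0.59 for Cox6a2, −0.20 for the sense probe and 0.50 and −0.28 for the opposite-strand probes. The unadjusted p of these values was 0.232 or above (exact permutation test, two-sided, n = 6).

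The other 2 Cox8h probes lie on the strand opposite to A_44_P414273 and share 40 bases with each other. They were between −0.01 and 0.98 (A_44_P689394) and between −0.35 and 0.53 (A_44_P689395), and both were detected on all 15 arrays. On all 3 probes the lowest array was nostril B of female 4. Since they read the other strand, their values are not counted here as Cox8h messenger RNA.

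**Figure D5:**
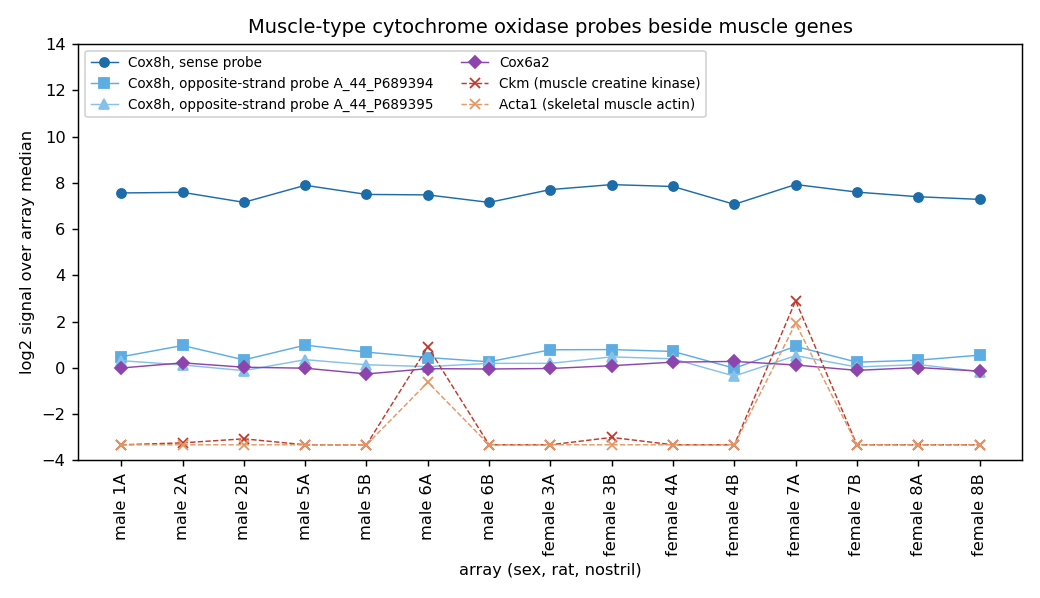
Level (log2 signal over array median) of the 3 Cox8h probes, Cox6a2 and the muscle genes Ckm and Acta1 on each of the 15 arrays, with the floor of the scale at −3.32. Ckm and Acta1 leave the floor on nostril A of female 7 and of male 6, and the Cox8h sense probe stays between 7.07 and 7.93 on all arrays.

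Probes of the same gene did not always tell the same story. For Ndufa9, an accessory subunit of complex I, the probe A_44_P620807 was lower in females by −0.22 ± 0.10 (SE) and A_44_P405583 higher by 0.16 ± 0.06 (SE). On the first, female 3 was the lowest rat at 2.604 and male 1 the highest at 3.15. On the second, male 5 was the lowest at 6.46 and female 4 the highest at 6.81. Neither passed the adjusted test. On nostril A of female 3 both were below the mean of the arrays of males 1 and 2 on the same slide, with differences of −0.51 and −0.19. No direction is given for the gene. Of the 3 Uqcrb probes, A_42_P668800 and A_44_P356291 differed between the sexes by −0.14 and 0.05, and A_44_P428197 by −0.07. The 2 probes of Ndufa2, which share 38 bases, differed between the sexes by −0.03 and −0.01, and both passed 5% between rats. Which transcripts or which cross-hybridising sequences the discordant probes read was not tested.

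Promoters were compared because most members encode parts of 1 pathway. All 71 genes were matched to RefSeq, 45 by accession, 23 by symbol and 3 by synonym, and 62 had a promoter sequence in the RefSeq table (build GRCr8, 250 bases before to 50 after the start). Short motifs of 4 factors were counted on both strands: NRF1 and GABPA (an ETS factor) are known regulators of nuclear mitochondrial genes, and YY1 and SP1 bind many promoters. The ETS motif CCGGAAG was present in 19 of the 62, or 30.6%, against 9.22% of all 27457 promoters of the same length. The NRF1 motif, written as GCGC, any base and TGCGC, was present in 14, or 22.6%, against 4.71%. The YY1 motif AANATGGCG was present in 13, or 21.0%, against 3.33%, and the SP1 motif GGGCGG in 28, or 45.2%, against 34.9%. Without the 5 genes that are not subunits or are named in doubt, among them Cox4nb and Cox6b, the shares of the remaining 57 were 29.8% (ETS), 24.6% (NRF1), 22.8% (YY1) and 42.1% (SP1). None of the 4 motifs contains another, and a match says only that the letters are there.

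The promoters of Sdhb and Ndufb3 are shown since these genes had opposite profiles in the males, and that of Cox8h because it is a muscle-type form that was detected in every sample. Capitals mark the motifs. Sdhb held 1 ETS and 1 YY1 motif, Ndufb3 none of the 4 and Cox8h 1 SP1 motif.
Sdhb, GRCr8 chr5:158547684-158547983, plus strand: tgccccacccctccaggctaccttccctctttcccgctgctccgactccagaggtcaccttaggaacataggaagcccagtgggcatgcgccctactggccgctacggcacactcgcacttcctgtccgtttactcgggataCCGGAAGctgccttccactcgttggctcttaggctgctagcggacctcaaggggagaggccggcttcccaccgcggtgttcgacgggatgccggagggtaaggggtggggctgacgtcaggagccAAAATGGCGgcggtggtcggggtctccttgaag
Ndufb3, GRCr8 chr9:67623167-67623466, plus strand: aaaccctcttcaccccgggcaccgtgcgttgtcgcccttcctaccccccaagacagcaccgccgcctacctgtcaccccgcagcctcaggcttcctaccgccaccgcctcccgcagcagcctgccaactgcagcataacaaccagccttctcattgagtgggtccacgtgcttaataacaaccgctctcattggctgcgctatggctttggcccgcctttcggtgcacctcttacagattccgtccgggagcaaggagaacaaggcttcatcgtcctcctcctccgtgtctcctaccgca
Cox8h, GRCr8 chr1:205408224-205408523, minus strand: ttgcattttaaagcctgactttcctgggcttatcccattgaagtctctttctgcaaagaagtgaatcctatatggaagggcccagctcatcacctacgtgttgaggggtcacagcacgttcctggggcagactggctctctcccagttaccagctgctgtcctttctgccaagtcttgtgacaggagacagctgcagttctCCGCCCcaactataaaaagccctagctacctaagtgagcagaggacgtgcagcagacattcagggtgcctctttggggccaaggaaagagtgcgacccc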

How the data were processed

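Total RNA of 15 olfactory epithelia from 8 rats was labeled with Cy3 and hybridised to 1-colour Agilent arrays. The authors deposited each array's Agilent Feature Extraction output, with a background-corrected signal intensity for every spot, and a table of each intensity as a ratio to the array median and then to the probe's own median over the arrays. Over 19072 probes, 99.9504% of those ratios were within 2% of the values computed here from the intensities. Array annotation is on build rn3. The number of arrays limits the precision.

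Spots of a probe were averaged after outlier spots were left out, and the deposited intensity was divided by the array median (57.4 to 83.4), floored at 0.1 and put on the log2 scale. Probes well above background on at least 7 arrays were tested. Expressed probes were those detected on at least 11 arrays. Sexes were compared with limma 3.58.1 (R 4.3.3) over 4 and 4 rat means, nostrils over 7 rats with the rat as a block, and rats of a sex by limma's F-test. P-values were adjusted by Benjamini and Hochberg over all probes tested, with thresholds of 1% and 5%. The labels name separate rats, so p-values rest on the spread between animals for the sexes and between nostrils of an animal for the rats. Nostrils A and B were paired by the rat number in the labels. Scripts were tested on simulated data. Alternatives were other scalings, normexp (offset 50), other floors and filters, the deposited ratio table, slide blocks, arrays as independent samples, the methods' t-test and each rat left out.

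The members, gene lists and motifs were chosen with earlier results of these data known. The rule for named genes took those past 1% in a comparison (no member passed), the 5 widest and 5 narrowest over rats, all tissue isoforms, members detected on fewer than 11 arrays, genes whose probes disagreed and the largest sex difference of each complex. Other genes, such as those past 5% between rats, Cox6c and Atp5c1, were named after their values were seen. The lists were markers of olfactory neurons, sustentacular and gland cells, respiratory cilia, skeletal muscle, red blood cells and brown fat, and genes of assembly factors, electron carriers, the tricarboxylic acid cycle, glycolysis, mitochondrial regulators, both ribosomes and complex I core subunits. Promoters and symbols came from RefSeq tables of GRCr8.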

Additional observations from a re-analysis of the deposited data

Results flagged for a closer look

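Over the 26 named probes detected, each sex was searched for a rat standing apart from the other 3, which made 52 groups of 4, and 2 were found, where chance gives about 1 in 20. The Ndufa1 probe A_44_P362889 was 8.55 in female 4 and between 8.51 and 8.52 in the other females, a gap of 0.880 of the whole range. The Uqcrb probe A_42_P668800 was 2.72 in male 6 and 2.75 in the other males, a gap of 0.892 of the range. Both ranges were narrow, at 0.04 and 0.03 on the log2 scale.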

How the results depend on the processing

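The sex comparison called 0 of 79 members at 1% under 18 of 19 alternatives. With the 15 arrays as independent samples it called 4 (Atp5s, Cox6c, Ndufab1 and Sdhb), against 3.74% of all probes, and 10 at 5%, against 12.6%. However, nostrils of a rat are not independent. At 5% the slide as a random block called 3 (Atp5s, Cox6c and Sdhb), against 3.59% of all probes. That fit was over single arrays, with the nostrils of a rat counted separately. Probes at an unadjusted p under 0.05 changed from 14 to 31 with independent arrays, 22 with quantile normalization and 2 with normexp. The share of all probes changed from 17.1% to 29.4%, 18.0% and 6.63%. The slide as a fixed block leaves 1 array on the female side. With it the median over members moved from 0.001 to 0.11, with 63 of 79 higher in females. The median over all probes moved from 0.009 to 0.057, with 59.2% higher in females. No paired analysis was possible because males and females share no rat. The nostril comparison called 0 members at 1% under all alternatives run, also with no replicate block (0 members, rat left out), and normexp put 1 of 79 members and 29.5% of all probes higher in nostril B, against 48 of 79 and 55.8%. Unadjusted, its count of 4 became 9 with quantile normalization and 2 with normexp.

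The rat comparison called 0 at 1%, but 2 with 75th percentile scaling (Ndufv2 and Sdhb), 4 with quantile normalization (Ndufa6, Ndufb9, Ndufv2 and Sdhb), 2 with no filter (Ndufa7 and Sdhb) and from 0 to 2 with a rat left out. At 5% its 18 became 8 with no filter, 4 with the deposited ratio table and 0 with normexp. It became 25 with 75th percentile scaling and 21 with quantile normalization. The shares of all probes in these settings were 8.58%, 11.7%, 0.671%, 20.2% and 20.7%. Unadjusted, its 45 became 28 and 1 with the ratio table and normexp, against 34.8% and 8.64% of all probes. The slide as a block, which leaves out males 5 and 6 against males 1 and 2, gave 0 at 5% and 25 unadjusted, against 0.116% and 17.1%. The span of the member mean over rats, 0.15, was 0.0568 with quantile normalization and 0.57 with normexp. It was 0.13 to 0.15 with a rat left out. Detection of 79 probes did not change. No relation to the muscle list passed the test under any alternative run, and r with a rat left out was −0.39 to −0.02 for Cox6a2, −0.48 to 0.40 for the Cox8h sense probe A_44_P414273, and −0.29 to 0.09 (A_44_P689394) and −0.15 to 0.37 (A_44_P689395) for the opposite-strand probes. The sign turned without female 3 (0.02) and without male 6 (0.089) for A_44_P689394, and without female 7 for the other Cox8h probes. The cause of these changes was not tested.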
